A study of Mus musculus with 12 samples.

Results

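Among the 6300 circRNAs called in the mouse thymus libraries, 31 lay in 1 short block of chromosome 17 that belongs to a copy of the ribosomal RNA repeat. They were taken by position and annotation. The rule used no count, although the members were chosen with earlier results of these data known. A call was kept if it was on chromosome 17, was marked intergenic in the deposited table, and started and ended between bases 39842900 and 39848900, a span of 6001 nt around the repeat copy named Rn45s. The 31 calls were 0.492% of all calls, 14.2% of the 218 intergenic calls and part of the 327 calls of chromosome 17. No other call touched the span, and none lay within 1000000 nt of it. The nearest other calls of the chromosome were 3723436 nt below it and 2996426 nt above it.

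Ribosomal RNA is made in the nucleolus by RNA polymerase I as a long precursor that holds the small-subunit RNA and the large-subunit RNAs between transcribed spacers, and the spacers are cut away and degraded as the ribosome is assembled. The genes for this precursor exist in many near-identical copies in tandem arrays, of which an assembled genome holds few, so that reads from any copy can align to the one that is placed. A circRNA is recognised by a read in which a downstream piece of RNA is joined to the start of an upstream piece, the back-spliced junction, and most known circRNAs come from the exons of genes read by RNA polymerase II.

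The thymus is the organ in which T cells mature, and it shrinks with age. Whole thymuses of male C57BL/6 mice with no stated genetic change were taken at 2 weeks (2W), 6 weeks (6W) and 3 months (3M), with 2 biological replicates per age. Total RNA was isolated with TRIzol, depleted of ribosomal RNA and turned into strand-specific libraries by the dUTP method. All ages went through the same depletion, and how completely it removed ribosomal RNA in each library was not analysed here.

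The 6 libraries held 10663 to 21914 junction counts and 16519753 to 22553481 mRNA counts. Junction counts were highest in the 6W libraries, with 18740 and 21914. Summed levels of 8 thymus markers, among them Rag1, Cd3e, Cd4 and Cd8a, were 11347 to 15250 counts per 1000000 (CPM), so that the labelled tissue was present in every library. Adipocyte markers (Adipoq, Plin1 and Cidec) summed to 7.52 and 10.8 CPM at 2W, 44.8 and 43.5 at 6W, and 116 and 63.4 at 3M. Red blood cell markers were highest in 3M replicate 2, at 1566 CPM against 280 to 559 in the other libraries. Liver markers (Alb, Apoa1 and Ttr) were at 4.02 CPM in 6W replicate 2 and 4.16 CPM in 3M replicate 2, against 148 to 211 in the other 4 libraries. Markers of B cells, skeletal muscle and exocrine gland stayed at or below 31.7 CPM. The adipocyte sums were highest at 3M and lowest at 2W, while the ribosomal repeat calls described next were lowest at 6W, and the part of other cell types in those counts was not tested. In bulk tissue, fewer cells of a type and less RNA per cell cannot be told apart.

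The 31 calls did not spread over the repeat. They ran from base 39843196 to base 39846120, a stretch of 2925 nt, and all ended before Rn18s-rs5, the RefSeq pseudogene of the small-subunit ribosomal RNA at chr17:39846354-39848202 (1849 nt). The last call ended 233 nt short of it, and 0 calls overlapped it. The other RefSeq gene that enters the span, the long non-coding RNA AY036118 at chr17:39848112-39898385, was not touched either. Both annotations are of GRCm38.p6, in whose gene table Rn45s itself has no entry. Within 100 nt, 98.9% of 6010 calls with a placed source gene lay inside that gene in the same build, although the submitters' processing notes name mm8.

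The calls formed 2 groups of overlapping intervals with 373 nt between them. The first group, chr17:39843196-39843841, held 7 calls and 149 of the 1176 junction counts (12.7%). The second, chr17:39844215-39846120, held 24 calls and 1027 counts (87.3%). Each group had exactly 1 call on the minus strand, and in each that call had the most counts of its group. The second group therefore carried most of the signal, and most of that came from its last 3 calls, next to Rn18s-rs5.

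**Figure D1:**
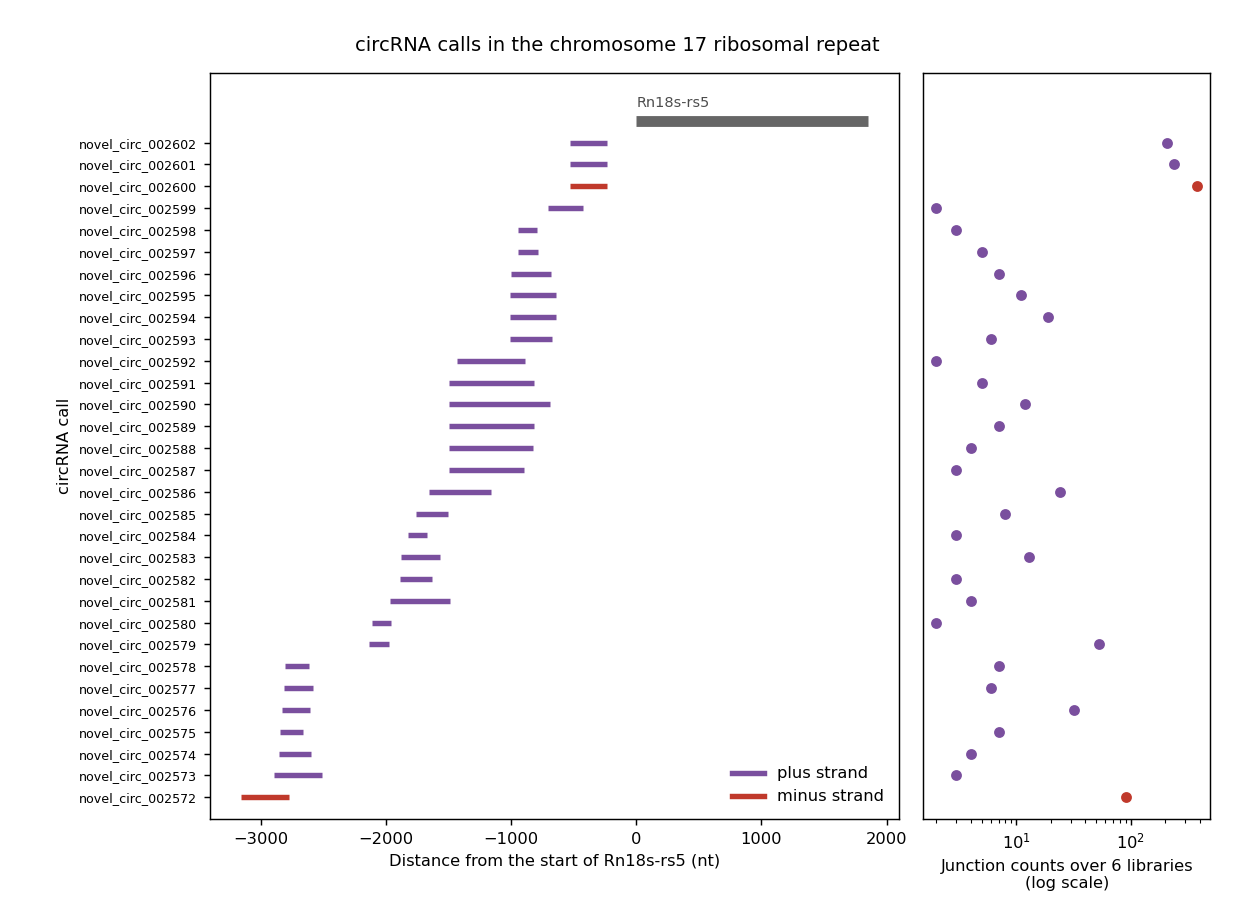
Position and size of the 31 circRNA calls. Left, each bar spans 1 call, drawn by its distance in nt from the start of Rn18s-rs5 (grey bar), with plus-strand calls in purple and minus-strand calls in red. Right, junction counts summed over the 6 libraries on a log scale. Every bar ends below 0, and the 3 calls nearest to Rn18s-rs5 have the most counts (381, 241 and 209).

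Of the 31 calls, 29 were on the plus strand and 2 on the minus strand, which is 93.5% plus. Among the 187 other intergenic calls, 95 were on the plus strand (50.8%), and among all 6269 other calls 52.5%. The minus-strand calls were few but deep, and took 471 of the 1176 counts (40.1%). In the gene table used here the repeat has no strand, so that sense and antisense to the precursor are not assigned.

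The calls were short. They spanned 151 to 808 nt with a median of 294 nt, against a median of 790 nt for the other intergenic calls and 4790 nt for all other calls. The deposited spliced length equalled the genomic span in 31 of 31 calls, as in 187 of 187 other intergenic calls and 27.7% of all other calls. Intergenic calls have no annotated exons, so that this equality goes with the annotation by which the calls were taken and says nothing about introns. A circBase identifier was carried by 3 of the 31 (9.68%), by 1 of the 187 other intergenic calls (0.535%) and by 5.63% of all other calls. These were novel_circ_002586, listed as mm9_circ_005915, and novel_circ_002597 and novel_circ_002598, both listed as mm9_circ_010658.

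Several circRNAs of a gene can share an exact end. Whether the ends of the repeat calls are splice sites was not tested, since no genome sequence was used. In the ribosomal repeat, 4 of 31 calls (12.9%) shared an exact end with another call on the same strand, against 40.4% of all other calls. Ends that lay close together without being the same were common. An end within 5 nt of the same end of another call on the same strand, but not identical to it, was found for 17 of the 31 calls (54.8%) and for 150 of the 6269 others (2.39%). These 17 calls thus lay in bundles with slightly different ends. The members were packed within 2925 nt, while the others were spread over the genome. Near ends are likelier where calls are dense, and neither share was compared with an equally dense place or with other intergenic calls. No test was made of these shares, since overlapping calls of 1 locus are not independent.

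The clearest bundle held 5 plus-strand calls that started between bases 39844855 and 39844857 and spanned 604 to 808 nt, with 31 counts in all. Of these, novel_circ_002588, novel_circ_002589 and novel_circ_002591 were all 677 nt long and were the same interval moved by 1 nt at a time. Another 3 calls, novel_circ_002594, novel_circ_002595 and novel_circ_002596, started between bases 39845347 and 39845349 and held 37 counts. The deepest bundle was novel_circ_002601 and novel_circ_002602, both 294 nt, with both ends moved by 4 nt and 450 counts between them. Pairs of calls with both ends moved by the same 1 to 5 nt involved 5 of the 31 calls (16.1%) and 32 of the 6269 others (0.510%).

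No other 6-kb window of the genome held as many calls. The next held 20 calls with 181 counts and lay over Malat1, an abundant nuclear long non-coding RNA. Windows of 8 calls followed in Morc3, with 924 counts, and in B230118H07Rik, with 31 counts. Malat1 as a whole held 22 intergenic calls with 186 counts, of which 6 were on the plus strand and 16 on the minus strand, and the deepest had 65 counts. The ribosomal repeat thus held more calls than Malat1 and 1176 counts against 186.

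Counts within the repeat were very uneven. The 3 deepest calls had 831 of 1176 counts (70.7%). Totals over the 6 libraries ran from 2 to 381 with a median of 7, against a median of 5 for all other calls. In all 6 libraries, 9 of the 31 calls were detected (29.0%, against 12.8% of all other calls), and 6 were detected in only 1 library. Between 17 and 21 of the 31 had a count in any 1 library. A count of 0 allows up to 3 counts of a call, so that an absence from 1 library is not evidence that the RNA was lacking.

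The 31 calls took a smaller share of the junction counts at 6W than at the other ages. They had 174 and 196 counts at 2W, 145 and 148 at 6W, and 219 and 294 at 3M. As a share of all junction counts this was 1.63% (95% exact Clopper-Pearson interval 1.40 to 1.89) and 1.76% (1.53 to 2.02) at 2W. It was 0.774% (0.653 to 0.910) and 0.675% (0.571 to 0.793) at 6W. At 3M it was 1.97% (1.72 to 2.24) and 1.91% (1.70 to 2.14). Both 6W libraries lay below every other library and their intervals did not meet those of the other ages, while the intervals of 2W and 3M overlapped. These intervals cover counting error only, since the reads carry no molecular identifiers. The 6W libraries had the fewest counts of the repeat although they had the most junction counts in all.

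The mean share was 1.70% ± 0.093 (SD, n = 2) at 2W, 0.725% ± 0.070 at 6W and 1.94% ± 0.042 at 3M. The 6W mean was 0.427 times the 2W mean, the 3M mean was 2.68 times the 6W mean, and 3M stood at 1.14 times 2W. Since 2 libraries against 2 cannot give an exact permutation p below 0.333, these ratios carry no p. They depend on what the counts are set against. Other junction counts per 1000000 mRNA counts were higher at 6W, at 937 ± 39.6 (SD, n = 2), than at 2W (638 ± 4.70) or 3M (671 ± 30.8). Set against mRNA counts instead, the 31 calls had 11.0 ± 0.694 counts per 1000000 at 2W, 6.83 ± 0.372 at 6W and 13.3 ± 0.317 at 3M. The order of the ages was the same on both scales, and the 6W difference was smaller per mRNA count.

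**Figure D2:**
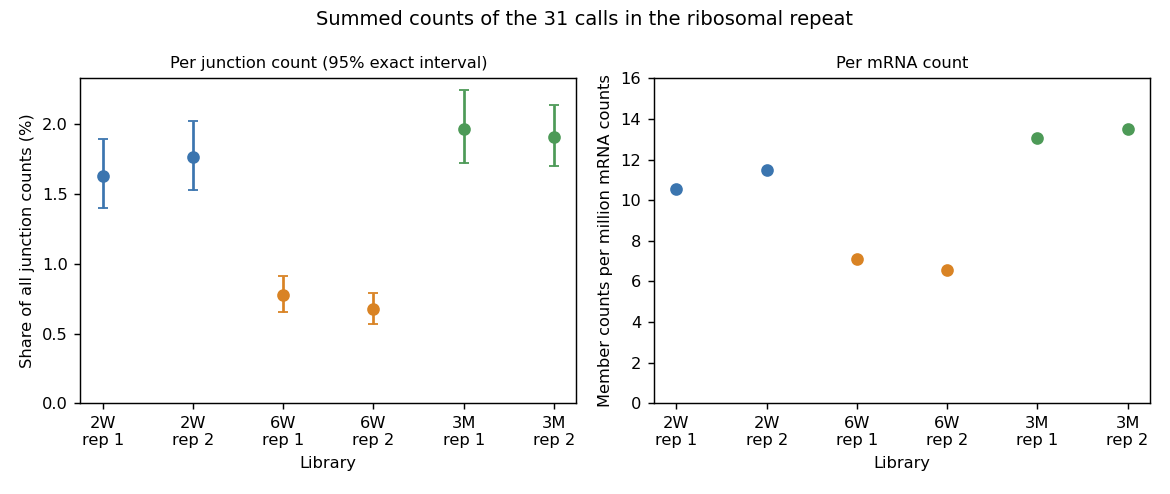
Summed counts of the 31 calls in each library. Left, percent of all junction counts with the 95% exact interval. Right, counts per 1000000 mRNA counts of the same library. The 6W libraries (orange) are lowest on both axes, at 0.774% and 0.675% on the left and at 7.09 and 6.56 on the right.

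As shares of the junction counts, other sets of calls moved less. From 2W to 6W the mean share of the 187 other intergenic calls went to 0.875 times its value, and that of the 1738 other calls whose spliced length equals their span to 0.832 times. For the 4531 calls with a shorter spliced length than span the ratio was 1.07. Between 6W and 3M the same sets went to 1.15, 1.18 and 0.938 times. The calls in Malat1, the next densest place, were at 0.618 times at 6W and stayed there, with 1.05 times from 6W to 3M. These sets overlap, since the Malat1 calls are among the other intergenic calls and those are among the calls whose spliced length equals their span. Per mRNA count the other intergenic calls and the other calls with spliced length equal to span turned direction in both steps, and the Malat1 calls did from 6W to 3M. On that scale the ratio from 2W to 6W was 1.27 for the other intergenic calls, 1.21 for the other calls with spliced length equal to span, 1.55 for those with a shorter spliced length and 0.900 for the Malat1 calls, against 0.619 for the ribosomal repeat. To 3M the ratios were 0.837, 0.856, 0.681 and 0.763 in the same order, against 1.94 for the repeat. On both scales the ribosomal repeat calls had the lowest 6W ratio of these 5 sets and the highest ratio from 6W to 3M. Whether the sets differ in this was not tested. Of all intergenic junction counts, the 31 calls took 41.7% ± 2.25 (SD, n = 2) at 2W, 25.9% ± 0.569 at 6W and 44.8% ± 1.86 at 3M.

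**Figure D3:**
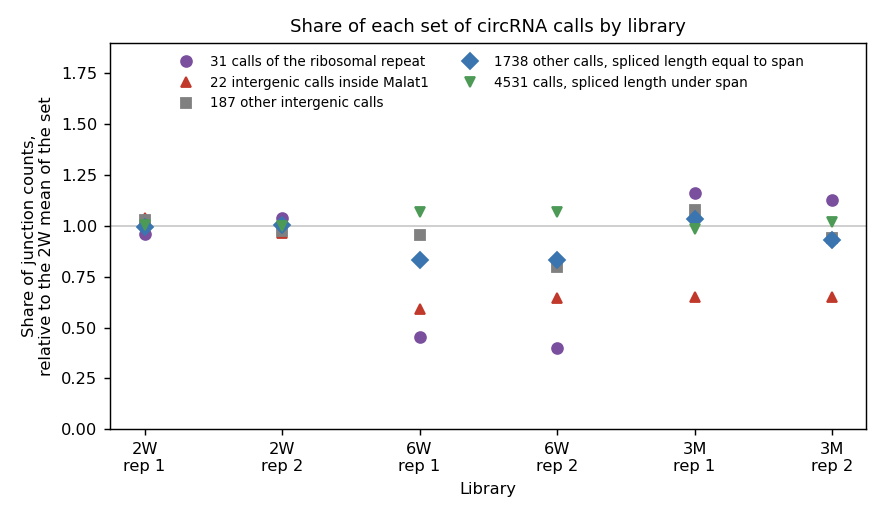
Share of junction counts of 5 sets of circRNA calls in each library, divided by the mean of the 2W libraries of that set. The calls of the ribosomal repeat (purple circles) are lowest at 6W and highest at 3M, where the Malat1 calls (red triangles) stay near their 6W level.

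The deepest call was novel_circ_002600, on the minus strand at chr17:39845823-39846116, with 381 counts. It was the intergenic call with the most counts in the series and ranked 17 of all 6300. It had 63 and 74 counts at 2W, 51 and 51 at 6W, and 62 and 80 at 3M, although the 6W libraries had the most junction counts. In RPM (counts per 1000000 junction counts of the library) the means were 6282 ± 529 at 2W, 2524 ± 279 at 6W and 5385 ± 266 at 3M (SD, n = 2). The 6W libraries did not overlap the others. In edgeR's quasi-likelihood test its log2 fold change from 2W to 6W was -0.99 (SE 0.31), with a Benjamini-Hochberg adjusted p of 0.569. To 3M the fitted value was 0.83 (SE 0.30, adjusted p = 0.600). With TMM scaling, in neither comparison did it pass an adjusted p of 0.05 or the study threshold, which asks for p under 0.05 before adjustment and a log2 fold change beyond 1 in either direction. Its value from 2W to 6W lay close to that limit. With total junction counts as the scale, which is the scale of RPM, its log2 fold changes were -1.32 and 1.09 and both passed the study threshold. It passed the study threshold in 6 of 8 alternative settings and in 5 of the 6 fits that left out 1 library (all but the one without 6W replicate 2), and it had an adjusted p of 0.0387, 0.0317 and 0.0312 in edgeR with total junction counts as the scale, with those totals less the members, and with filterByExpr. Between 6W and 3M it passed the study threshold in 4 of 8 alternative settings and in 4 of 6 fits with 1 library left out.

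At the same coordinates on the plus strand lay novel_circ_002601, ranked 30 of all calls with 241 counts. It had 29 and 41 counts at 2W, 23 and 24 at 6W, and 54 and 70 at 3M. Its mean was 3204 ± 685 RPM at 2W, 1161 ± 93.4 at 6W and 4700 ± 217 at 3M (SD, n = 2), with no overlap between any of the ages. From 6W to 3M it rose by 1.75 on the log2 scale (SE 0.35), which is 3.37-fold, with an edgeR adjusted p of 0.00146. This was the smallest adjusted p of the 18 calls of the repeat that had enough counts to be tested.

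Moved by 4 nt on the same strand, novel_circ_002602 at chr17:39845827-39846120 ranked 43 of all calls with 209 counts. It had 21 and 40 counts at 2W, 23 and 19 at 6W, and 46 and 60 at 3M. Its mean was 2784 ± 1152 RPM at 2W, 1047 ± 255 at 6W and 4016 ± 168 at 3M (SD, n = 2). The 2W replicates lay far apart, and all 3M values were above all others. From 6W to 3M it rose by 1.68 on the log2 scale (SE 0.36), or 3.21-fold, with an edgeR adjusted p of 0.00518. Since the intervals of novel_circ_002601 and novel_circ_002602 share all but 4 nt at each end, they are not independent observations.

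The adjusted p of both calls at 3M depended on the 6W libraries. Without 6W replicate 1 the edgeR adjusted p was 0.0558 for each, and without 6W replicate 2 it was 0.220 and 0.594. Their log2 fold changes were 1.55 to 2.09 when any 1 library was left out. From 2W to 6W both were lower at the study threshold. Here novel_circ_002601 had a log2 fold change of -1.14 (SE 0.37, edgeR adjusted p = 0.569) and novel_circ_002602 one of -1.09 (SE 0.38, edgeR adjusted p = 0.705). The value of novel_circ_002602 no longer passed without 2W replicate 2 (-0.87) or without 6W replicate 2 (-0.96), and neither call passed with mRNA counts as the scale (-0.93 and -0.88). From 2W to 3M their values were 0.61 (SE 0.33) and 0.59 (SE 0.35), with an edgeR adjusted p of 0.819 for both.

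In the first group, the minus-strand call novel_circ_002572 at chr17:39843196-39843578 was 383 nt long and the deepest, with 90 counts. It had 19 and 13 counts at 2W, 11 and 10 at 6W, and 17 and 20 at 3M. Its mean was 1476 ± 433 RPM at 2W, 522 ± 92.4 at 6W and 1414 ± 162 at 3M (SD, n = 2), so that 2W and 3M overlapped and 6W lay below both. It was past the study threshold in both directions, with a log2 fold change of -1.17 (SE 0.52, edgeR adjusted p = 0.874) from 2W to 6W and of 1.17 (SE 0.51, edgeR adjusted p = 0.877) from 6W to 3M. The lower value at 6W no longer passed without 2W replicate 1 (-0.94), without 6W replicate 2 (-1.11) or with mRNA counts as the scale (-0.96), and the higher value at 3M no longer passed without 6W replicate 2 (1.10) or with mRNA counts (0.97). From 2W to 3M its log2 fold change was -0.01 (SE 0.48).

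The calls with fewer counts did not all share this order of ages. The plus-strand call novel_circ_002579 (chr17:39844215-39844376, 162 nt) had 12 and 4 counts at 2W, 9 and 11 at 6W, and 9 and 8 at 3M. Its 2W replicates spanned the range of all other libraries in RPM. For novel_circ_002576, with 228 nt, the counts were 2 and 4 at 2W, 9 and 6 at 6W, and 3 and 8 at 3M. It was not lowest at 6W, with 377 ± 146 RPM there against 274 ± 122 at 2W and 395 ± 177 at 3M (SD, n = 2).

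The call with a circBase entry of its own, novel_circ_002586 (496 nt), had 1 and 3 counts at 2W, 4 and 5 at 6W, and 2 and 9 at 3M. For novel_circ_002594 (369 nt) they were 4 and 3 at 2W, 3 and 3 at 6W, and 5 and 1 at 3M. Both overlapped between 6W and 3M in RPM. For novel_circ_002583 (312 nt) the counts were 1 and 0 at 2W, 1 and 3 at 6W, and 0 and 8 at 3M, so that a single library held most of them.

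The longest call, novel_circ_002590 with 808 nt, had 2 and 1 counts at 2W, 1 and 1 at 6W, and 2 and 5 at 3M. For novel_circ_002595 (365 nt) they were 0 and 1, 1 and 1, and 2 and 6 in the same order of ages. For novel_circ_002585 (256 nt) they were 3 and 0, 3 and 1, and 0 and 1, with no age apart from the others. With TMM scaling no difference between ages was called for calls with so few counts a library, which does not show that there was none. The remaining 19 calls had totals of 2 to 7 and 83 counts together (7.06%), with 17 and 12 counts at 2W, 6 and 13 at 6W, and 17 and 18 at 3M.

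**Figure D4:**
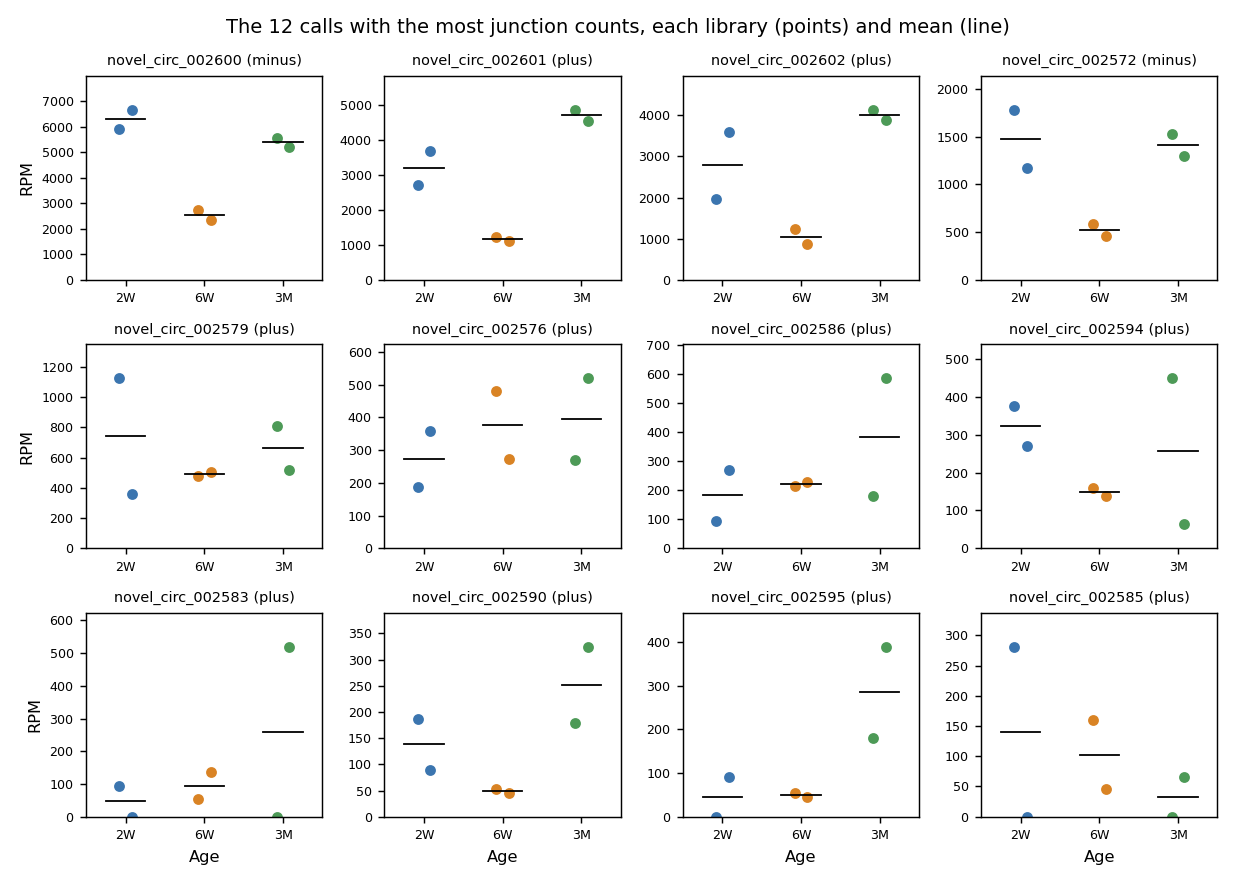
RPM (counts per 1000000 junction counts) by age for the 12 calls with the most counts. Points are libraries, the line is their mean, and each panel starts at 0 with its own upper limit. In the first 4 panels both 6W libraries lie below those of 2W and 3M, and in the panels of calls with 8 to 53 counts the ages mostly overlap.

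Since 3 calls held most of the counts, the remainder was summed apart from them. The 3 deepest calls together were at 12270 ± 2365 RPM at 2W, 4733 ± 627 at 6W and 14101 ± 652 at 3M (SD, n = 2). The other 28 together were at 4704 ± 1437, 2513 ± 68.7 and 5290 ± 235 RPM. Both sums were thus lowest at 6W. In the first group of intervals the sums were 2251 and 2159 RPM at 2W, 1174 and 867 at 6W, and 2247 and 2273 at 3M. In the second they were 14067 and 15472 RPM at 2W, 6564 and 5887 at 6W, and 17438 and 16823 at 3M. The 6W values were the lowest in either group, and in the second group the 3M values were also above those of 2W.

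The tests used calls whose counts summed to 6 or more, which were 18 of the 31 members and 2779 of all calls. From 2W to 6W, 3 of the 18 were past the study threshold, all lower, where 0.900% of all tested calls were lower at that threshold. At an adjusted p under 0.05, edgeR called 0 of the 18 and 0% of all calls. At an unadjusted p under 0.05 alone there were 4 of the 18, against 4.61% of all tested calls, and DESeq2 called 0 of the 18 and 0% of all at an adjusted p under 0.05. Fitted log2 fold changes were below 0 for 13 of the 18 with a median of -0.88, while the median of all tested calls was 0.36. With mRNA counts in place of junction counts as the scale, 0 of the 18 were past the study threshold, and the median of the 18 was -0.67.

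Between 6W and 3M, 3 of the 18 were past the study threshold, all higher, against 1.30% of all tested calls. At an edgeR adjusted p under 0.05 there were 2, novel_circ_002601 and novel_circ_002602, against 0.288% of all tested calls, which were 8. DESeq2 also called 2 of the 18, against 0.0720% of all tested calls. Fitted values were above 0 for 16 of the 18 with a median of 1.19, and the median of all tested calls was -0.33. This comparison and the one before share the 6W libraries, so that opposite directions in them are not separate evidence.

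From 2W to 3M, 0 of the 18 were past the study threshold, where 3.92% of all tested calls were. At an adjusted p under 0.05 edgeR and DESeq2 each called 0, where edgeR called 0.0360% of all tested calls, and 0 of the 18 had an unadjusted p under 0.05, against 4.32% of all. The median of the 18 was 0.31, with 11 above 0 and 7 below, and the median of all tested calls was 0.00. With TMM scaling no difference between 2W and 3M was called for any of the 18, which does not show that there was none.

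The balance of the strands was followed at 1 place where both were read. At the shared coordinates of novel_circ_002600 and novel_circ_002601, the plus strand held 31.5% and 35.7% of the counts at 2W and 31.1% and 32.0% at 6W. At 3M it held 46.6% (95% exact interval 37.2 to 56.0) and 46.7% (38.5 to 55.0). The 3M values lay above the other 4 libraries, but their intervals overlapped those of 2W replicate 2 (26.9 to 45.1) and of the other 3. By age the means were 33.6% ± 2.92, 31.5% ± 0.650 and 46.6% ± 0.0813 (SD, n = 2). No test was made of this share, since the pair was chosen with its counts known and an exact permutation test of 1 age against another cannot go below 0.333.

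In the series, 22 other pairs of calls lay at the same coordinates on both strands, with 1291 counts. A single pair at Morc3, novel_circ_002415 and novel_circ_002416, held 836 of these (64.8%), and it was set apart after its counts were seen. Its plus-strand share was 58.7% ± 4.24 at 2W, 55.8% ± 3.01 at 6W and 63.4% ± 8.84 at 3M (SD, n = 2). For the remaining 21 pairs, with 455 counts, the share was 38.2% ± 0.375, 42.0% ± 2.00 and 43.9% ± 12.5. The 3M libraries of those 21 pairs lay far apart, at 52.8% and 35.1%, so that their mean says little about that age. The ribosomal pair was below the Morc3 pair in every library and below the 21 pairs in all but 3M replicate 2. The plus strand is that of the genome, and it was antisense to the annotated gene in some of the 21 pairs and sense in others. Their summed share is therefore no baseline for sense and antisense RNA at the repeat.

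Summed over the strands, the 2 minus-strand calls of the repeat were at 7758 ± 96.0, 3046 ± 371 and 6798 ± 428 RPM at 2W, 6W and 3M. The 29 plus-strand calls were at 9216 ± 832, 4200 ± 325 and 12592 ± 11.6 RPM. Both strands were lowest at 6W. At 3M the minus-strand sum was below that of 2W in both libraries, and the plus-strand sum was above it in both.

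**Figure D5:**
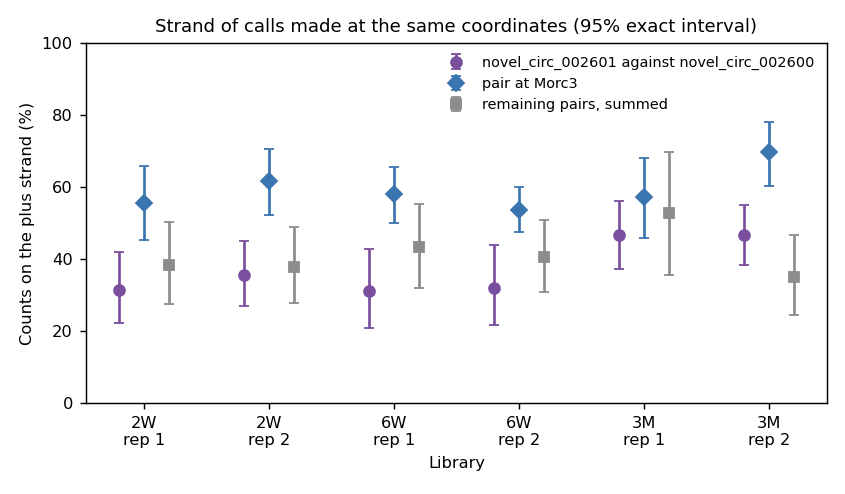
Percent of counts on the plus strand for calls made at the same coordinates on both strands, with the 95% exact interval. Purple circles are novel_circ_002601 against novel_circ_002600, blue diamonds the pair at Morc3 and grey squares the sum of the 21 remaining pairs. The ribosomal pair is at 31.1% to 35.7% in the 2W and 6W libraries and at 46.6% and 46.7% at 3M.

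The genes that make and process the ribosomal RNA precursor were read from the mRNA table, as 24 genes of RNA polymerase I and its factors and 72 of processing, of which 24 and 70 could be tested. From 2W to 6W, edgeR called 0 of these 94 at an adjusted p under 0.05, against 1.74% of 14805 tested genes. At an unadjusted p under 0.05 there were 5 of 24 and 8 of 70, against 18.9% of all tested genes, and DESeq2 called 2 at an adjusted p under 0.05, against 6.37% of the genes for which it gave one. Medians of the log2 fold change were -0.10 for the polymerase I list and -0.17 for the processing list, with 14 of 24 and 56 of 70 below 0, where the median of all tested genes was -0.01. For 6W to 3M edgeR again called 0, against 0.00675% of all tested genes, with 2 of 24 and 11 of 70 at an unadjusted p under 0.05 against 14.3% of all, and DESeq2 called 1, against 3.00% of the genes for which it gave an adjusted p. Medians there were -0.05 and 0.03.

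Of the polymerase subunits, Polr1b, which encodes the second largest subunit, was at 48.0 and 41.1 CPM at 2W, 33.1 and 35.5 at 6W, and 51.8 and 52.8 at 3M. Its 6W libraries were the lowest and its 3M libraries the highest, but neither difference passed the edgeR test, with log2 fold changes of -0.38 (SE 0.12, adjusted p = 0.180) to 6W and 0.61 (SE 0.12, adjusted p = 0.206) to 3M. The largest subunit, Polr1a, was at 99.0 ± 10.8 CPM at 2W, 80.7 ± 3.05 at 6W and 98.7 ± 0.744 at 3M (SD, n = 2), and its log2 fold changes of -0.29 and 0.29 did not pass. Rrn3, the initiation factor that recruits the polymerase, was at 106 ± 13.7, 93.3 ± 0.488 and 114 ± 9.53 CPM. Ubtf, which binds the repeat and keeps it open, was at 230 ± 23.0, 233 ± 25.3 and 247 ± 26.0 CPM, with no age apart.

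Among the processing genes, Ncl, which encodes nucleolin, was at 590 ± 34.0 CPM at 2W, 467 ± 32.3 at 6W and 442 ± 93.2 at 3M (SD, n = 2). Fbl, the methyltransferase fibrillarin, was at 63.4 ± 12.6, 71.2 ± 1.95 and 63.2 ± 13.5 CPM. Neither passed the edgeR test in any comparison. From 2W to 3M, 2 of the 94 genes were called at an adjusted p under 0.05, both lower, against 11.0% of all tested genes. They were Xrn2, a nuclear exonuclease that trims and degrades precursor pieces, and Taf1a, a subunit of the polymerase I selectivity factor. Xrn2 went from 180 ± 2.46 to 131 ± 6.06 CPM and fell by 0.46 on the log2 scale (SE 0.10, edgeR adjusted p = 0.0390). Taf1a went from 38.1 ± 1.86 to 26.5 ± 2.69 CPM and fell by 0.52 (SE 0.12, edgeR adjusted p = 0.0423). With a replicate block neither was called. When 1 library was left out, the count was 8 without 3M replicate 1 and 0 without each of the other 5.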

How the data were processed

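Thymus RNA libraries of 3 ages (2W, 6W, 3M; 2 per age) were grouped by the labels. For circRNAs the authors deposited whole junction counts and RPM, where each count is divided by the library's sum of junction counts and multiplied by 1000000. For mRNAs the authors deposited estimated counts per transcript, of which 84.1% of the values above 0 are not whole. The circRNA caller is not given in the sources used here. The submitters' processing notes name Bowtie 0.12.2 and the build mm8, with no role. The study compared ages with DESeq and called a change at p under 0.05 where the log2 fold change went beyond 1 in either direction, here the study threshold.

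Members were taken by position and annotation, and the members, gene lists and comparisons were chosen with earlier results of these data known. Calls whose counts summed to 6 or more went into edgeR 4.0.16 (TMM, quasi-likelihood test, all ages in 1 fit) in R 4.3.3, with Benjamini-Hochberg adjustment over all tested calls. Estimated mRNA counts were summed by gene symbol, rounded and filtered with filterByExpr. CPM are per 1000000 of the TMM-scaled library size. Those of the cell type markers are instead per 1000000 of the library's unscaled counts summed over named genes. DESeq2 1.42.0, other scalings, no filter, filterByExpr, fitting only the 4 libraries of a comparison, the replicate number as a block and omission of each library were the alternatives. Table work was done with pandas 2.3.3 under Python 3.11.15, intervals were computed with scipy 1.17.1, and the fits were tested on simulated data. p-values rest on the spread between replicate libraries, 2 per age, which the fits share over calls or genes. In edgeR, those of circRNA calls nearly equalled p-values of a normal distribution for log2 fold change over SE. The replicate spread of a single call therefore added little to its own p.

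Named were the 12 calls with the most counts, any call past a threshold, the genes of the ribosomal RNA lists with an adjusted p under 0.05 and, where fewer than 4 were called, Polr1a, Polr1b, Ubtf, Rrn3, Fbl and Ncl. The 22 calls in Malat1 were taken by position in RefSeq GRCm38.p6 after the densest windows were seen. The lncRNA and miRNA tables were not used here, since none of their RNAs could be placed inside the span. No genome sequence was used, so that junction sequences are not given. Libraries were compared with each other (Spearman correlation of log2 RPM 0.341 to 0.486), and none was a repeat of another.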

Additional observations from a re-analysis of the deposited data

How the results depend on the processing

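Depth limits most calls of the repeat: 13 of 31 had under 6 counts in all. From 2W to 6W, the 3 calls past the study threshold became 5 with total junction counts as the scale, with or without the members in it, and 0 with mRNA counts, and the 0 at an adjusted p under 0.05 became 1 and 1 with those totals and 2 with filterByExpr, which tests fewer calls. The ranges with 1 library left out were 1 to 5 and 0 to 0. From 6W to 3M they were 2 to 4 at the study threshold and 0 to 2 at an adjusted p under 0.05, with 0 without either 6W library. From 2W to 3M they were 0 to 1, with 1 without 2W replicate 2 and 1 without 3M replicate 1, and 0 to 0.

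The log2 ratio of the share of junction counts from 2W to 6W (-1.23) was -0.69 per mRNA count and -1.04 against other intergenic calls, and -1.33 to -1.13 with 1 library left out. From 6W to 3M (1.42) it was 0.96, 1.22 and, without the deepest call, 1.57, with a range of 1.33 to 1.52. From 2W to 3M (0.19) it was 0.39 without the deepest call, with a range of 0.14 to 0.25. The order of the ages was kept in each of these. Total counts as the scale moved the median log2 fold change of all calls by -0.30 from 2W to 6W and by 0.24 from 6W to 3M, and mRNA counts moved it by 0.21 and -0.20.

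For the genes of ribosomal RNA synthesis and processing, the 0 called from 2W to 6W became 2 with DESeq2, 1 without a filter and 0 to 2 with 1 library left out. The 0 from 6W to 3M became 1 with DESeq2 and stayed 0 to 0 with a library left out. The 2 from 2W to 3M became 0 with the replicate block and 0 to 8 with 1 library left out. The causes of these differences were not tested. The replicate block gave 3 and 3 calls of the repeat at the study threshold and 0 and 2 at an adjusted p under 0.05 in the first and second comparison, as without it. The labels give no meaning to the replicate numbers. Deviations of same-numbered libraries correlated at -0.04 to 0.03 for circRNAs. For mRNAs they correlated at 0.35 between 6W and 3M, -0.13 between 2W and 6W, and -0.33 between 2W and 3M. Liver markers were low only in replicate 2 of 6W and of 3M. Whether same-numbered libraries shared their handling was not tested. The planned tests of lncRNAs and miRNAs in the repeat were not run, since none could be placed there.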
